A study of Homo sapiens with 18 samples.

Results

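CTCF regions that carried no H3K27ac peak and lay far from the start of every protein-coding gene were examined in HEK293T cells, an immortalised human line derived from embryonic kidney. ChIP-seq libraries had been made from untreated cells (CTRL) and from cells given valproic acid (VPA), which inhibits histone deacetylases, at 1 mM for 1 day. Each of the 4 groups (CTCF and H3K27ac in CTRL and in VPA) held 3 libraries. The labels do not say whether replicates came from separate cultures, so p-values measure only the spread between these libraries, which may be technical. CTCF peaks of the 6 lists were merged where they shared at least 1 bp, which gave 69985 regions on chromosomes 1 to 22. A region's summit was that of its peak with the highest −log10 q-value. The members were chosen by their summit, which had to be over 100 kb from the transcription start site (TSS) of all 19111 protein-coding genes and outside every peak of the 6 H3K27ac lists. Of the 69985 regions, 18285 (26.1%) met both conditions and are called unacetylated distal CTCF regions. A further 34365 regions were unacetylated but within 100 kb of a TSS (unacetylated proximal), 15566 were acetylated within 100 kb and 1769 were acetylated beyond it.

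CTCF is a zinc finger protein that binds a long, partly conserved DNA motif and halts the cohesin complex as it extrudes chromatin loops. Loops form preferentially between CTCF sites whose motifs point toward each other, so the strand of a motif carries information. H3K27ac, acetylated lysine 27 of histone H3, marks active promoters and enhancers, and a CTCF site without it is usually regarded as a structural site rather than part of an active regulatory element. Binding of CTCF is hindered by methylation of CpG pairs in some positions of its motif.

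Sequences of a few high-ranked distal regions show the CTCF motif. The motif searched was the CTCF core CCNNNAGNNGGC, with 7 fixed bases of 12, on both strands and within 50 bp of a summit, and N is any base. All coordinates are those of hg38. Each of the 5 windows printed here is 42 bp long in the direction of its motif, with the core in capitals. They belong to the 5 distal regions with the highest mean within-list rank of −log10 q among those found in all 6 libraries and without an exact copy elsewhere in the genome, a restriction made after the values were seen. The first lies at chr14:106349172-106349213 (minus strand) among the variable segments of the immunoglobulin heavy chain, and the second at chr16:85420917-85420958 (plus strand) in an intron of GSE1. The third is at chr12:127280882-127280923 (plus strand) in an intron of the long noncoding RNA LINC02376, the fourth at chr13:67416488-67416529 (minus strand) in the desert beside PCDH9, and the fifth at chr12:124767146-124767187 (minus strand) between genes near SCARB1.
IGHV4-31: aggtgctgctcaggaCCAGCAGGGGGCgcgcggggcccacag
GSE1: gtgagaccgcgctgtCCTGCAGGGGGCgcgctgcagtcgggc
LINC02376: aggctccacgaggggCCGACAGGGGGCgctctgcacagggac
PCDH9: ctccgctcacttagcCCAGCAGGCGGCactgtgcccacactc
SCARB1: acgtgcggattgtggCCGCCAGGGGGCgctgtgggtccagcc

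The peaks at these 5 regions were high in every library. Fold enrichment, the summit's fragment pileup over its local background as the peak caller computed it, was 69.0, 75.9 and 82.6 in CTRL replicates 1, 2 and 3 and 97.5, 114 and 87.3 in the VPA replicates at the region beside IGHV4-31. At the GSE1 region it was 100.9, 168 and 142 in CTRL and 176, 252 and 144 in VPA. The LINC02376 region had 113, 136 and 161 in CTRL and 193, 185 and 217 in VPA. The CTRL values lay below the VPA values beside IGHV4-31 and in LINC02376 and overlapped them in GSE1, and none of the differences passed the limma test described further on. The PCDH9 region had 113, 109 and 70.1 in CTRL and 155, 104 and 111 in VPA, and the SCARB1 region had 90.5, 119 and 108 in CTRL and 128, 148 and 105.2 in VPA, so that the groups overlapped in both.

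Ranked over all members found in 6 libraries, the highest 5 regions were repeated sequence. The 50 bp to each side of each summit occurred more than once in chromosomes 1 to 22, X and Y. The regions on the short arm of chromosome 21, at chr21:8204699-8205652, chr21:8387744-8388674 and chr21:8432031-8432813 all in introns of unnamed long noncoding RNA genes, had 4 exact copies each. The region at chr1:181312-182567, 116 kb from the olfactory receptor gene OR4F5, had 5 copies, and the region at chr17:83204978-83206421, beyond METRNL near the chromosome end, had 2. Fold enrichment on chromosome 21 ranged from 16.4 to 61.3 over the 3 regions and 6 libraries. It was 55.4, 136 and 106 in CTRL and 116, 144 and 107 in VPA near OR4F5, and 71.1, 221 and 146 in CTRL and 108, 196 and 185 in VPA near METRNL. How the authors treated reads that align to several places was not stated, so values at such regions cannot be assigned to a single copy. The last 2 of these regions held the core motif.
OR4F5: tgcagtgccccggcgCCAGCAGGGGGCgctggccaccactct
METRNL: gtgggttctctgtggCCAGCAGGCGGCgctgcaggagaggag

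Exact copies were a small part of the whole. Of the 18285 distal regions, 717 (3.92%) had at least 1 further copy, compared with 2.87% of unacetylated proximal, 2.31% of acetylated proximal and 9.95% of acetylated distal regions. Members with copies were found in all 6 libraries in 30.0% of cases and held the core motif in 20.9%, and members without copies in 25.2% and 22.3%.

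Distance from gene starts did not mean a place outside genes. Of the members, 6878 (37.6%) lay inside a protein-coding gene, mostly in introns of long genes, 3673 (20.1%) lay only inside a long noncoding RNA gene and 7448 (40.7%) outside all annotated genes. The corresponding shares of unacetylated proximal regions were 54.4%, 10.5% and 33.6%. Summits fell in an annotated exon in 854 members (4.67%) and in 13.1% of unacetylated proximal regions. The distance to the nearest protein-coding TSS had a median of 230 kb and reached 5507 kb, and 1199 members (6.56%) were more than 1000 kb away. Where the TSS of every transcript of a protein-coding gene was used in place of the gene's TSS, 14154 members were left.

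Regions at the borders of the rule are given without a test. Just over 100 kb from a TSS lay regions in introns of PRKAG2 (100.002 kb from the TSS of RHEB) and GRK5 (100.003 kb from RGS10), found in 6 libraries and in 1. Just under it lay regions near SYK (100 kb, not over it), in an intron of TSHZ3 (99.986 kb) and in an intron of CPS1 (99.980 kb), found in 3, 4 and 4 libraries. The H3K27ac condition was met narrowly by 425 members with their summit within 500 bp of an H3K27ac peak. The 3 nearest, near TRABD2B and ICOS and in an intron of SDK2, had their summits 1 bp outside a peak, so that unacetylated means no more than outside the listed H3K27ac peaks.

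Distal regions took up much of the genome at low density. The territory over 100 kb from a protein-coding TSS comprised 1313 Mb, 47.6% of the sequenced bases of chromosomes 1 to 22. It held 13.9 unacetylated and 1.35 acetylated CTCF regions per Mb, and the territory within 100 kb held 23.8 and 10.8 per Mb. Members per Mb of distal territory ranged from 11.02 on chromosome 4 to 19.3 on chromosome 22. The gene-dense chromosome 19 had 111 members, 4.16% of its CTCF regions, whereas chromosomes 13 and 18 had 775 and 622 members, 40.8% and 40.9% of theirs. Distal territory made up less of chromosome 19 than of chromosomes 13 and 18, so the 100 kb rule itself makes a lower share likely. Per Mb of distal territory, chromosome 19 held 13.7 members, not fewer than the 12.7 and 12.9 of chromosomes 13 and 18. Neighbouring members were a median of 43.9 kb apart, with quartiles of 14.7 and 130 kb.

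The surroundings of the members were poorer in G and C than those of the other classes of CTCF region. The median GC content of the 10 kb around the summit was 40.3% (quartiles 37.5% and 44.2%) in unacetylated distal regions. It was 42.1% in acetylated distal, 44.7% in unacetylated proximal and 47.7% in acetylated proximal regions. The GC content of distal territory as a whole was not computed. In each of the 6 CTCF libraries the median over distal peaks was lower than that over unacetylated proximal peaks. The differences were −4.39, −4.50 and −4.40 percentage points in CTRL and −4.97, −4.53 and −4.53 points in VPA. The mean difference was −4.55 points. GC content is a property of the genome and the lists share many regions, so the libraries are not replicates of it and no test is given. The members closest to a TSS (100 to 200 kb) had a median GC content of 41.8%, and those beyond 1000 kb 37.9%.

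The first comparison addressed whether VPA changed the number of distal CTCF regions detected. In CTRL, 7764, 14567 and 14024 of the 18285 regions had a peak in replicates 1, 2 and 3. In VPA the counts were 7055, 12434 and 14061. Replicate 1 was low in both treatments, and the groups overlapped. The CTRL mean was 12118 ± 3781 and the VPA mean 11183 ± 3667 (SD, n = 3 per group), a difference of −935 regions that was within the spread between replicates (two-sided exact permutation test, p = 0.6, adjusted p = 1 over 10 exact tests). Peaks at distal regions formed 19.6%, 24.9% and 24.9% of the CTCF lists in CTRL and 19.5%, 23.3% and 25.5% in VPA, which the exact test did not tell apart (p = 0.9). With 3 libraries against 3 the exact test cannot go below p = 0.1.

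**Figure D1:**
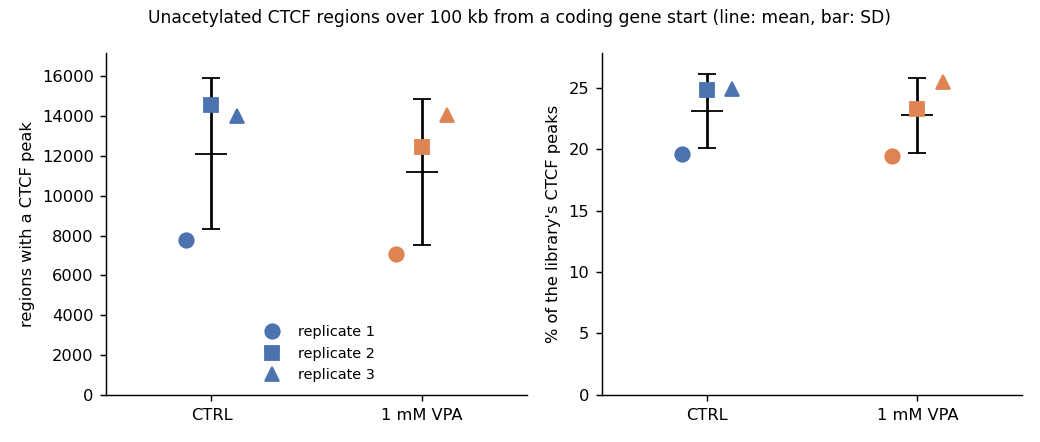
Left, unacetylated distal regions with a CTCF peak in each library (counts); right, peaks at these regions as a percentage of all CTCF peaks of the library. Symbols are replicates, black lines the means and bars the SD (n = 3): replicate 1 lies lowest in both treatments, at 7764 and 7055 regions, and the groups overlap.

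Few regions were confined to a treatment. All 3 VPA libraries but no CTRL library had a peak at 30 members, 0.164% of them, and over all 69985 CTCF regions this pattern was found at 0.186%. The reverse was found at 52 members (0.284%) and at 0.326% of all regions. Both shares were thus near the background. With equal CTCF list lengths the counts were 10 VPA-only and 4 CTRL-only. Omission of CTRL replicate 1 gave 572 CTRL-only and of VPA replicate 1 gave 180 VPA-only members, but fewer libraries make the pattern easier to meet. The shares over all CTCF regions were not computed for these settings, so these counts say nothing particular to members. Regions of either kind stood low in their lists: the median of the mean within-list percentile was 17.7 for the VPA-only and 15.2 for the CTRL-only members, compared with 61.5 for members found in all 6 libraries. The core motif was present at 4 of the 30 and at 2 of the 52.

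The highest-ranked VPA-only member was at chr21:31985287-31985911 in an intron of HUNK, a serine/threonine kinase gene, with fold enrichments of 13.96, 11.8 and 9.82 in VPA replicates 1, 2 and 3. It was the only one of the 5 highest with the core motif, and the motif is printed here for the 42 bp at chr21:31985590-31985631 (plus strand), where a second match to the core follows in lower case.
HUNK: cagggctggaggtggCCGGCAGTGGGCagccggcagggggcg
The 4 that followed lay in an intron of a long noncoding RNA gene near XKR9 (11.5, 5.34 and 16.1 in the VPA replicates), in an intron of the synaptic scaffold gene MAGI2 (11.96, 4.49 and 17.0), near PSMB1 (4.70, 6.69 and 3.04) and near MANEA (8.76, 4.70 and 15.3). VPA replicate 2 was the lowest of the 3 libraries at all of them but the region near PSMB1. The summit near PSMB1 was 0.318 kb from an H3K27ac peak. The highest-ranked CTRL-only members were in introns of DIP2C (10.2, 8.08 and 8.06 in CTRL replicates 1, 2 and 3) and of the unconventional myosin gene MYO1D (10.1, 4.72 and 8.21), near STT3B (10.5, 4.77 and 8.64), near CTBP2 (8.27, 6.57 and 5.59) and in an intron of TACC2 (6.80, 6.43 and 6.36). None of these 5 held the core motif, and their highest CTRL value was 10.5.

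Peak strength was compared at the 27794 CTCF regions found in 6 of 6 libraries, of which 4639 were distal members. Log2 fold enrichment, centred on each library's median, was tested with limma with Benjamini-Hochberg adjustment over all 27794 regions. Adjusted p stayed above 0.05 everywhere: 0 of the 4639 members and 0% of all regions passed, with a lowest adjusted p of 1.00 among members. At an unadjusted p under 0.05 the counts were 27 members and 83 of all regions, below the share of 0.05 that would pass with no difference at all. Recovered fragment pileups in place of fold enrichment also gave 0 members, with 0 at an unadjusted p under 0.05. The median log2 difference, VPA minus CTRL, was 0.05 over members and 0.10 over all regions tested. At the regions named here, the SE of a single region's log2 difference ran from 0.64 to 0.74. The fit could thus find only large differences, and 0 calls do not show that strength was unchanged.

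The 3 members with the lowest unadjusted p in each direction are given for their values only. In an intron of GPC5, a heparan sulphate proteoglycan of the cell surface, 789 kb from its TSS, fold enrichment was 16.8, 2.61 and 1.78 in CTRL replicates 1, 2 and 3 and 27.5, 13.7 and 21.8 in VPA. The log2 difference was 2.36 ± 0.74 (SE, limma, adjusted p = 1.00), and CTRL replicate 1 lay above VPA replicate 2. A region in an intron of SLC35F1 near PLN had 4.30, 5.35 and 6.92 in CTRL and 10.3, 11.97 and 20.7 in VPA, with no overlap and a log2 difference of 1.45 ± 0.65 (limma, adjusted p = 1.00). An intron of the anion transporter gene SLCO5A1 held the next, with 8.80, 12.9 and 10.3 in CTRL and 16.3, 32.1 and 32.9 in VPA (log2 difference 1.41 ± 0.64).

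The lower values in VPA were found in an intron of the noncoding gene MIR646HG, whose nearest coding gene is the cadherin gene CDH26, with 262, 157 and 131 in CTRL and 18.6, 78.4 and 73.7 in VPA. All VPA values lay below all CTRL values there, and the log2 difference was −1.77 ± 0.66 (SE, limma, adjusted p = 1.00). An intron of the RNA helicase gene DDX10 had 12.9, 53.7 and 31.7 in CTRL and 5.55, 3.81 and 33.1 in VPA, and these overlapped. An intron of KCNN2, which encodes a calcium-activated potassium channel, had 160, 81.3 and 60.4 in CTRL and 18.6, 37.9 and 35.6 in VPA (log2 difference −1.54 ± 0.67), without overlap. In the MIR646HG and KCNN2 regions replicate 1 held both the highest CTRL and the lowest VPA value.

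Windows around the core are printed for the regions in GPC5 (chr13:92187560-92187601, plus strand), MIR646HG (chr20:60211254-60211295, plus strand) and DDX10 (chr11:108871348-108871389, minus strand), to show that these sites hold a full core match. The regions in SLC35F1 and KCNN2 had no core match within 50 bp of the summit.
GPC5: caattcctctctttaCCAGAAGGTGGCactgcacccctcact
MIR646HG: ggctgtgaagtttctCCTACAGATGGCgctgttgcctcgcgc
DDX10: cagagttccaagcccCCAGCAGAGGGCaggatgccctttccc

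Distal regions recurred less across libraries than other CTCF regions did. A peak in all 6 libraries was found at 4639 members (25.4%), at 36.9% of unacetylated proximal regions, at 61.6% of acetylated proximal and at 49.1% of acetylated distal regions. A peak in a single library was found at 3116 members (17.0%), compared with 14.5% and 10.7% of unacetylated and acetylated proximal regions. Members found in 4 libraries numbered 3892 (21.3%), more than those found in 1, 2, 3 or 5. By distance from a coding TSS, 28.8% of members at 100 to 200 kb were found in all 6 libraries, 24.4% at 200 to 500 kb, 18.9% at 500 to 1000 kb and 21.9% beyond.

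Replicate 1 lists held fewer distal regions than the others in both treatments. In CTRL replicate 1, the number of distal regions with a peak was 54.3% of the mean of replicates 2 and 3, compared with 68.9% for unacetylated and 81.3% for acetylated proximal regions. In VPA replicate 1 these shares were 53.3%, 62.5% and 86.9%. For acetylated distal regions they were 78.7% in CTRL replicate 1 and 73.3% in VPA replicate 1. The background coverage of the CTCF libraries, recovered from the deposited values, was 3.59 to 3.93 fragments, so sequencing depth times fragment length was alike. Peaks whose local background equalled that of the whole genome made up 31.8% and 31.997% of the replicate 1 lists and 9.08% to 13.6% of the remaining lists. The part of this difference in the missing regions was not tested.

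Regions of equal strength were therefore compared. The 4 libraries of replicates 2 and 3 shared 45114 regions, 10338 of them members, which were divided into 10 strength classes of equal size by their mean log2 fold enrichment in those libraries. In CTRL replicate 1, members were found less often than unacetylated proximal regions in 10 of 10 classes, and in VPA replicate 1 in 7 of 10. In class 6, with mean fold enrichments of 22.7 to 32.6, CTRL replicate 1 had a peak at 56.0% of members, 73.5% of unacetylated proximal and 90.5% of acetylated proximal regions. VPA replicate 1 had 69.5%, 77.5% and 89.2% there. Acetylated distal regions of this class numbered 104, with a peak at 77.9% in CTRL replicate 1 and 84.6% in VPA replicate 1. In the strongest class the share was 99.2% of members in CTRL replicate 1 and 100% in VPA replicate 1. These shares describe 2 libraries and carry no test.

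**Figure D2:**
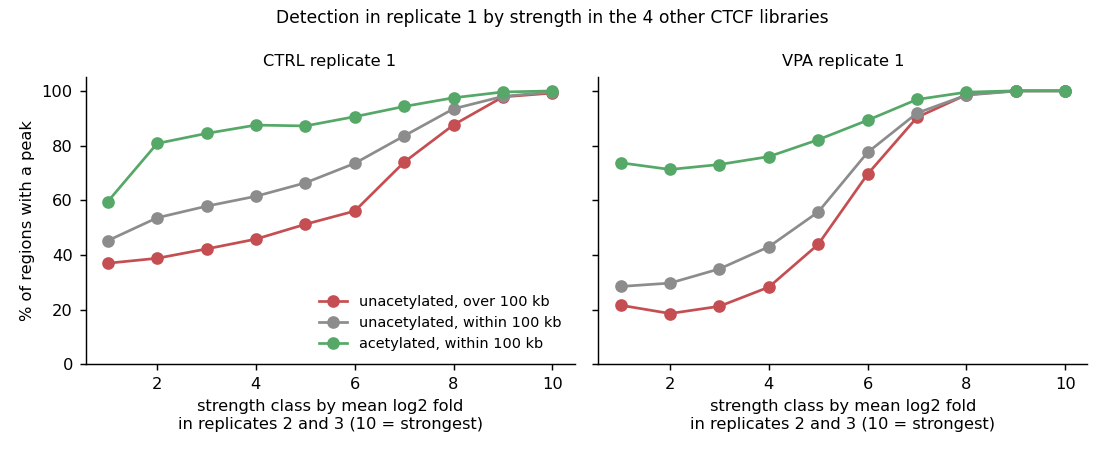
Percentage of CTCF regions with a peak in CTRL replicate 1 (left) and VPA replicate 1 (right) against 10 classes of mean log2 fold enrichment in replicates 2 and 3. Lines are classes of region, and acetylated distal regions are not drawn. In class 6 the distal unacetylated regions lie at 56.0% and 69.5%, below both proximal classes, and all classes drawn meet near 100% in the strongest class.

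The core motif was present at 4071 of the 18285 distal regions, 22.3% (95% Wilson interval 21.7% to 22.9%). Windows of the same length 2 kb away held it in 0.725% of cases. The share was 24.8% in unacetylated proximal, 25.7% in acetylated proximal and 20.4% in acetylated distal regions. Among members it was 14.6% at regions with a peak in a single library, 17.4% in 4 libraries, 22.8% in 5 and 37.6% in all 6 (1742 of 4639). Unacetylated proximal regions in all 6 libraries had 37.8%, so that at full recurrence the unacetylated distal and proximal shares lay within each other's counting error. Acetylated regions in all 6 libraries had lower shares, 35.3% proximal and 31.9% distal. Acetylated proximal regions in a single library had 7.20%, below the 14.6% of members.

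**Figure D3:**
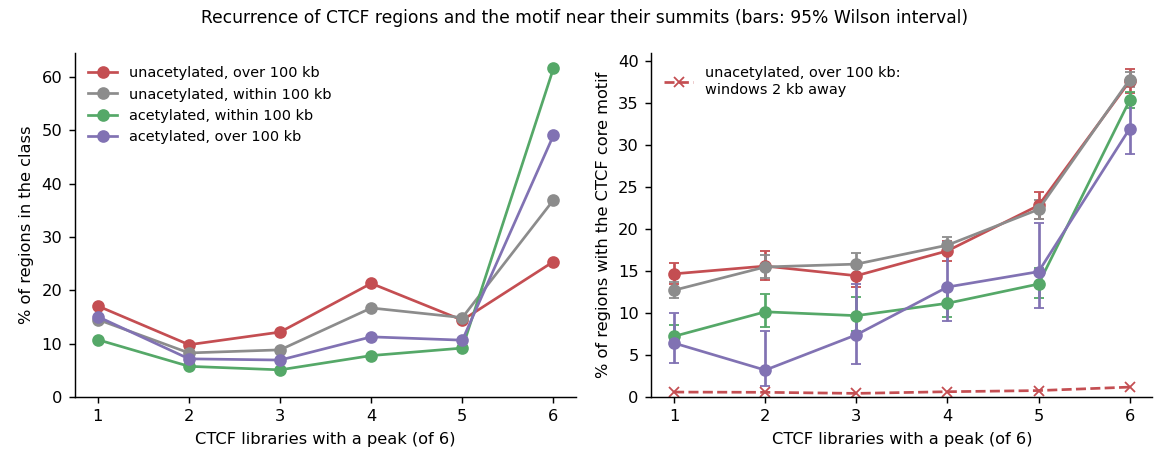
Left, percentage of the regions of each class by the number of CTCF libraries with a peak; right, percentage holding the core motif within 50 bp of the summit, with 95% Wilson intervals, and the same for windows 2 kb from the member summits (dashed). Members found in all 6 libraries make up 25.4% of their class, the lowest of the 4 classes, and hold the motif in 37.6%.

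Within libraries, motif shares of distal peaks were 26.0%, 24.1% and 23.98% in CTRL replicates 1, 2 and 3 and 36.0%, 23.6% and 25.7% in VPA. VPA replicate 1 stood above the other libraries. The difference between treatments was 3.73 percentage points (exact permutation test, p = 0.7, adjusted p = 1), and it was −0.036 points without VPA replicate 1. Distal peaks held the motif less often than unacetylated proximal peaks in 5 of 6 libraries. The differences were −1.04, −3.43 and −3.58 points in CTRL and −3.03 and −3.30 points in VPA replicates 2 and 3, whereas VPA replicate 1 had 0.906 points in the other direction. The mean difference was −2.25 ± 1.80 points (SD, n = 6, exact sign-flip test, p = 0.0625, adjusted p = 0.156). Because the 6 lists share many regions, the sign-flip tests cover the spread between lists and not between independent sets of regions.

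Distal peaks were lower and narrower than unacetylated proximal peaks in every CTCF library. Median fold enrichment of distal peaks was 8.31, 12.8 and 12.8 in CTRL and 8.97, 11.9 and 13.3 in VPA, and that of unacetylated proximal peaks was 9.24, 14.8 and 14.9 in CTRL and 9.48, 13.9 and 15.6 in VPA. The log2 ratio of these medians ranged from −0.23 to −0.08 with a mean of −0.19 ± 0.06 (SD, n = 6). The exact sign-flip test gave p = 0.03125, the smallest possible with 6 libraries, and adjusted p = 0.104. Peaks at members had median widths of 501, 608 and 614 bp in CTRL and 459, 617 and 609 bp in VPA. They differed from unacetylated proximal peaks of the same list by −76 to −47 bp (mean −68.3 ± 10.7 bp, exact p = 0.03125, adjusted p = 0.104). None of these differences passed a threshold of 0.05 after adjustment, and none could have. The smallest sign-flip p that 6 libraries allow stays above 0.05 once adjusted over all the exact tests. The adjusted values therefore cannot decide whether distal and proximal peaks differed. Between treatments the median width differed by −12.7 bp (exact p = 0.9) and the log2 ratio by 0.02 (exact p = 1).

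CpG pairs within the core were rare at unacetylated sites. The 12 bases of the core held a CpG in 434 of 4071 members (10.7%) and in 12.4% of unacetylated proximal regions, and in 37.2% of acetylated proximal and 25.2% of acetylated distal regions. The members' cores comprised 436 different sequences. The 3 most frequent are shown because they are shared by all classes.
core A: CCAGCAGAGGGC
core B: CCACCAGAGGGC
core C: CCACCAGGGGGC
These were carried by 172 (4.23%), 125 (3.07%) and 115 (2.82%) of the 4071 members with a motif, and by 4.16%, 4.75% and 3.69% of the unacetylated proximal regions with a motif, and all 3 lack a CpG. Each member with a motif was paired with the next such member on its chromosome. CTCF regions of other classes or without a motif were skipped, so the pairs need not be adjacent CTCF sites. The median gap was 315 kb for members and 111 kb for unacetylated proximal regions paired alike. Motifs of paired members pointed toward each other in 23.9% of 4049 pairs, away from each other in 23.98% and the same way in 52.2%. For unacetylated proximal regions the shares were 25.4%, 25.5% and 49.0%. Among regions found in all 6 libraries the same-strand share was 49.1% for members and 48.8% for unacetylated proximal regions.

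A small part of the distal CTCF regions lay in the antigen receptor loci, in which variable (V), diversity and joining gene segments are recombined in lymphocytes. HEK293T cells are not lymphocytes. GENCODE gives the segments biotypes of their own, so they do not count as protein-coding TSSs, and these loci enter as far from genes by that convention. They were examined after the values were seen. Loci were taken as runs of at least 20 segments of a family with gaps of at most 500 kb, and 250 members (1.37%) lay in them. The share of all CTCF regions in these loci was not computed. Of these, 50.8% were found in all 6 libraries and 39.2% held the core motif, compared with 25.02% and 22.03% of the other members. By locus, the members found in all 6 libraries were 66 of 99 in IGH, 16 of 31 and 6 of 25 in the arms of IGK, 9 of 15 in IGL, 11 of 44 in TRA with TRD and 19 of 36 in TRB, so that the shares in the second IGK arm and in TRA with TRD were near that of the other members. Segments of a family are related copies, which limits how reads can be assigned among them. Motif sites beside such copies need not be independent of each other, so the strand counts in these loci carry no test.

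The immunoglobulin heavy chain locus IGH (chr14:105583731-106879812, 1.30 Mb) held 99 members of its 100 CTCF regions, or 76.4 per Mb. The members had peaks at 82, 85 and 84 of the 99 in CTRL replicates 1, 2 and 3 and at 71, 88 and 85 in VPA. Median fold enrichment was 33.0, 36.4 and 32.5 in CTRL and 30.9, 43.2 and 36.9 in VPA. By median fold enrichment CTRL replicate 1 was not the lowest CTRL library here, whereas it was over all distal peaks. By count replicate 1 was the lowest in both treatments, and VPA replicate 1 also had the lowest VPA median. The core was present at 45 members and was on the minus strand in 37, the strand from which the IGH segments are transcribed. Of the 99 members, 71 lay within 2 kb of the midpoint of a V segment. Among those with a motif, 29 had it on the strand of that segment and 2 on the opposite strand.

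The T cell receptor loci had the opposite strand. TRA and TRD (chr14:21621838-22552156) held 44 members of 52 CTCF regions, with the core at 20, on the plus strand in 18. Near V segments, 14 motifs were on the strand of the segment and 0 on the other, which with 14 sites is a small count. TRB (chr7:142299177-142813399) held 36 members of 47 CTCF regions, with the core at 12, on the plus strand in 11, and near its V segments 3 motifs were on the strand of the segment and 1 on the other. Peaks were found at 17, 38 and 38 of the TRA and TRD members in CTRL and at 27, 26 and 41 in VPA, and at 23, 31 and 30 of the TRB members in CTRL and 21, 27 and 31 in VPA. CTRL replicate 1 was low in both.

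The light chain loci were smaller. IGK is split into 2 arms, at chr2:88857161-89330429 and chr2:89851791-90315836, which held 31 and 25 members. Cores in the first were on the minus strand in 7 of 8 and in the second on the plus strand in 7 of 9, and near V segments 3 motifs in each arm were on the strand of the segment and 0 on the other. IGL (chr22:22026076-22923034) held 15 members of 68 CTCF regions, and 3 of 4 cores were on the minus strand. Near IGL V segments, 1 motif was on the strand of the segment and 3 on the opposite strand. TRG (chr7:38239580-38368169) had 10 CTCF regions and 0 members.

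**Figure D4:**
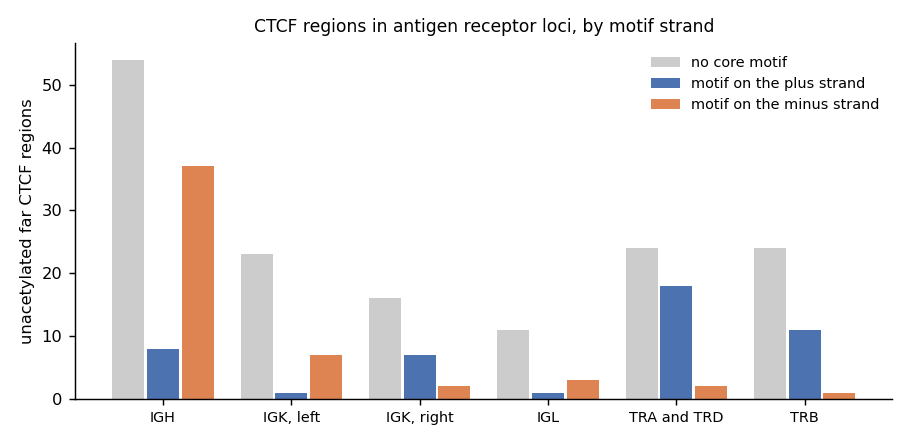
Unacetylated distal CTCF regions in antigen receptor loci (counts), without the core motif (grey) and with it on the plus (blue) or minus (orange) strand. In IGH 37 of 45 cores are on the minus strand, and in TRA with TRD 18 of 20 and in TRB 11 of 12 are on the plus strand.

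The highest-ranked motif-bearing members of IGH, TRA with TRD and TRB are printed to show their cores and flanks. The windows come from IGH at chr14:105945123-105945164, chr14:106373550-106373591 and chr14:106153535-106153576 (all minus strand, 147, 343 and 331 bp from the midpoint of the named V segment), from TRA and TRD at chr14:21846439-21846480 (plus strand), chr14:22471683-22471724 (minus strand) and chr14:21978354-21978395 (plus strand), and from TRB at chr7:142496672-142496713, chr7:142358049-142358090 and chr7:142438421-142438462 (plus strand). Each window is named for the nearest V segment, whose midpoint was 2324 bp away for TRDV3, 3580 bp for TRBV5-6 and 2620 bp for TRBV12-2. The IGHV4-31 window belongs with them.
IGHVII-1-1: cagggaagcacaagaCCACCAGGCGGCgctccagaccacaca
IGHV4-34: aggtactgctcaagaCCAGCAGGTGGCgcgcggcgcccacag
IGHV3-15: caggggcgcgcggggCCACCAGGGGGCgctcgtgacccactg
TRAV8-2: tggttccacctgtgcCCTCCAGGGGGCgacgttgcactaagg
TRDV3: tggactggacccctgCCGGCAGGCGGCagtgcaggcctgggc
TRAV8-6: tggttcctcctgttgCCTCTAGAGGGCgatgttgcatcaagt
TRBV5-6: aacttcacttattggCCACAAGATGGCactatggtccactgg
TRBV8-1: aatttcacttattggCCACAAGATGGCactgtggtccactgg
TRBV12-2: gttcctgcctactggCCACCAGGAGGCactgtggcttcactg
The 50 bp to each side of each of these summits occurred only once in the genome. Fold enrichment at the IGHV4-34 site was 78.7, 132 and 83.4 in CTRL and 109, 120 and 119 in VPA. At the TRAV8-2 site it was 29.9, 72.8 and 104 in CTRL and 10.2, 126 and 87.6 in VPA, with the lowest value of each treatment in replicate 1. At the TRBV8-1 site it was 22.9, 54.4 and 62.4 in CTRL and 22.9, 84.2 and 70.8 in VPA, again lowest in replicate 1. The region summit at the TRAV8-2 site was 0.048 kb from an H3K27ac peak.

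Long genes held many members in their introns. The 6878 members inside protein-coding genes were spread over 1566 genes, 414 of which held 1 member. Among the 10 genes with most members were PTPRN2 (35), RBFOX1 (31), NTM (30), DPP6 (28), CAMTA1, DAB1, KAZN and PDE4D (26 each) and CNTNAP2 (25). PTPRN2 encodes a receptor-type phosphatase of secretory vesicles and RBFOX1 a neuronal splicing regulator. In PTPRN2, 21, 23 and 22 members had a peak in CTRL replicates 1, 2 and 3 and 19, 27 and 29 in VPA. In RBFOX1 the counts were 17, 30 and 26 in CTRL and 14, 25 and 27 in VPA, so that replicate 1 had fewer than the other libraries in both treatments. In DAB1, an adaptor of reelin signalling, they were 8, 22 and 22 in CTRL and 5, 15 and 19 in VPA, and only 4 of its 26 members were found in all 6 libraries. CAMTA1, a transcription regulator, had 14 of 26 in all 6.

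Gene groups chosen for their length or their desert surroundings were all represented, which that choice itself makes likely. The share of all CTCF regions or of distal territory in these groups was not computed. Each of 30 long genes of cell adhesion and synapse held members, 395 in all (2.16% of the members), from 2 in PCDH7 to 31 in RBFOX1 with a median of 11. In the adhesion gene CNTNAP2, 10, 21 and 21 of 25 members had a peak in CTRL and 10, 18 and 22 in VPA, and in NRXN3, a presynaptic adhesion gene, 8, 21 and 21 of 24 in CTRL and 11, 16 and 19 in VPA. Of the 395, 93 (23.5%) were found in all 6 libraries, near the 25.4% of all members. The 12 large genes of common fragile sites held 180 members, of which 18.3% were found in all 6 libraries and 17.8% held the core, compared with 25.4% and 22.3% of all members. AUTS2 had 20 members, of which 1 was found in all 6 libraries.

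Developmental transcription factor and signalling genes often stand alone beside wide gene-free intervals. Each of 40 such genes was the nearest coding gene of at least 1 member, and 364 members (1.99%) were counted in this way, with a median of 9 per gene. The highest numbers were 28 near NR2F2, 19 near BCL11A and 17 each near TSHZ3 and DACH1. Near NR2F2, 3, 22 and 22 members had a peak in CTRL and 4, 14 and 19 in VPA, and 2 were found in all 6 libraries. Near SOX9, a regulator of cartilage and gonad development, 11, 12 and 14 of 16 had a peak in CTRL and 6, 10 and 11 in VPA. Of the 364, 70 (19.2%) were found in all 6 libraries, compared with 25.4% of all members.

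The widest intervals between neighbouring coding TSSs were dominated by centromeres. The 3 widest, FAM72B to H3-7 on chromosome 1, SPATA31A6 to SPATA31A5 on chromosome 9 and the interval before SHCBP1 on chromosome 16, spanned 22.7, 18.7 and 12.2 Mb, of which 18.1, 15.1 and 8.21 Mb are unsequenced. They held 87, 26 and 23 members. On chromosome 1 only 5 of the 87 were found in all 6 libraries and 3 held the core motif. The interval between RPIA and AQP7B on chromosome 2, which includes the IGK arms, held 95 members, 21.97 per sequenced Mb, with 39 found in all 6 libraries. The other 6 were ZNF716 to ZNF722 (4 members), ANKRD30B to ROCK1 (30), KCNJ18 to WSB1 (17), ZNF337 to DEFB115 (40), PCDH7 to ARAP2 (34) and ZNF254 to UQCRFS1 (31).

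Wide intervals between neighbouring coding TSSs with complete sequence held members at a lower density. They are called deserts here, although gene bodies can extend into them. RAG2 to LRRC4C on chromosome 11 spanned 4.86 Mb with 38 members among 41 CTCF regions, of which 0 were acetylated. AGA to TENM3 on chromosome 4 had 38 members in 4.70 Mb, NCAM2 to MRPL39 on chromosome 21 had 34 in 4.61 Mb and CELF4 to PIK3C3 on chromosome 18 had 41 in 4.39 Mb. LRRTM1 to SUCLG1 on chromosome 2 had 28 in 4.16 Mb and OLFM4 to PRR20A on chromosome 13 had 34 in 4.11 Mb. Densities were 6.74 to 9.34 members per Mb in the 6 deserts, which were chosen after the values were seen, compared with 13.9 over all distal territory. The desert densities count the whole interval, with the 100 kb at each end where no member can lie, and distal territory leaves such stretches out. Between 14.7% and 28.9% of their members were found in all 6 libraries.

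The 5 members farthest from a coding TSS lay on the short arm of chromosome 21, from 5397.6 to 5507 kb from TPTE. At 4 of them the 50 bp to each side of the summit occurred at 2 places in the genome, and 3 lay in gene models that GENCODE lists as artifacts. The region at chr21:5114305-5115459 had fold enrichments of 30.5, 64.6 and 57.2 in CTRL and 51.6, 75.1 and 54.4 in VPA, and the farthest, at chr21:5014049-5014621, had none in CTRL replicate 1, 4.22 and 5.10 in CTRL replicates 2 and 3 and 3.65, 6.71 and 6.14 in VPA. The summit of the farthest was 0.057 kb from an H3K27ac peak. TPTE was the nearest coding gene of 91 members, of which 72 had exact copies.

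The last question was how close H3K27ac came to these regions. The members were selected on lying outside the peaks of these same 6 lists, so the distances are a description and no test is given. The median distance was 151, 126 and 124 kb in CTRL replicates 1, 2 and 3 and 120, 95.9 and 102 kb in VPA, without overlap between the groups. Means were 134 ± 14.999 kb in CTRL and, in VPA, 106 ± 12.5 kb (n = 3 libraries, SD), a difference of −27.6 kb. A distance within 10 kb was found for 6.08%, 7.46% and 7.51% of members in CTRL and for 9.19%, 11.2% and 10.3% in VPA. H3K27ac lists were longer in VPA. With each list limited to the length of the shortest by −log10 q, the difference in median distance was 0.273 kb, and the direction was lost. Against any of the 6 lists, the median distance was 71.2 kb for members and 14.1 kb for unacetylated proximal regions. Members lie far from coding TSSs by the rule, and H3K27ac marks active promoters, so that choice itself makes their longer distance likely. More than 1000 kb from an H3K27ac peak lay 282 members.

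**Figure D5:**
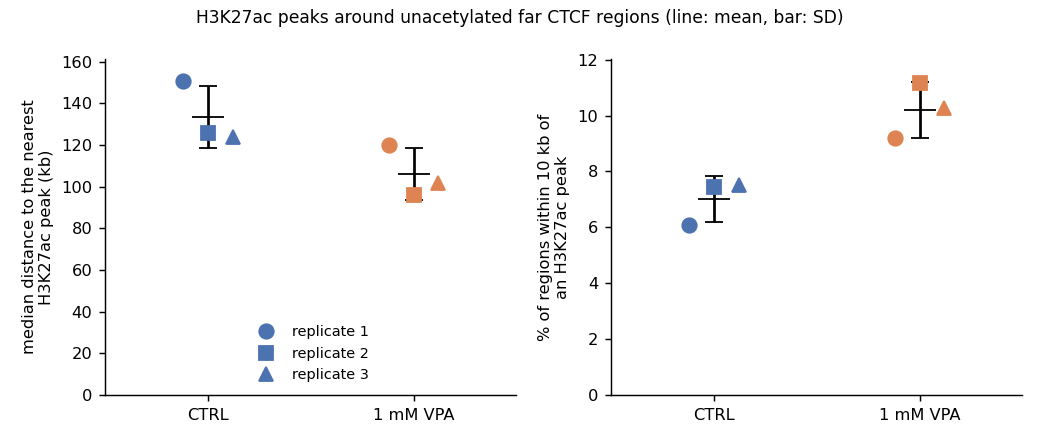
Left, median distance in kb from the unacetylated distal CTCF regions to the nearest H3K27ac peak of each library; right, percentage of these regions within 10 kb of such a peak. Symbols are replicates, black lines means and bars SD (n = 3): the 3 VPA libraries lie at 95.9 to 120 kb, below the 124 to 151 kb of CTRL.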

How the data were processed

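ChIP-seq reads were aligned to hg38 with Bowtie2 by the authors, who called peaks in each library separately with MACS3 3.0.0a7 at a q-value of 0.05. Whether the inputs were given to the caller was not stated. The deposited lists give for each peak a score, the fold enrichment (a ratio of summit pileup to local background), the −log10 p-value and the −log10 q-value, as the authors' caller computed them. The 12 lists held 506359 peaks, all within the hg38 chromosome lengths. The 6 input libraries were not analysed here.

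The lists hold no read totals, so depth was judged from the local background recovered from fold and p-value, which gave whole pileups within 0.05 in 100% of peaks after rounding (99.9997%). Intervals cover counting error only.

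Peaks were merged and annotated with GENCODE release 44 in Python 3.11.15 (pandas 2.3.3, numpy 2.4.6, scipy 1.17.1) and plotted with matplotlib 3.10.9. Groups were taken from the labels. Treatments were compared with exact permutation tests over 3 against 3 libraries, and distal with proximal peaks with exact sign flips over 6. The Benjamini-Hochberg adjustment covered 10 such tests, of which those of GC content and of the distance to H3K27ac are not reported, since the GC content of a region is fixed and the H3K27ac lists had chosen the members. Fold enrichment was tested with limma 3.58.1 (R 4.3.3). The code was tested on simulated data with a set spread, which does not measure its power on these libraries. Alternatives were other distances (50 and 200 kb), stricter or equal-length lists, other motif settings, the replicate number as a block and omission of each library. The test of GC content, the TSS of every transcript and the omission of regions with exact copies were added after the data had been seen.

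Members and gene lists were chosen with earlier results of these data known. The regions named were the 5 highest-ranked in all 6 libraries, the 5 highest-ranked confined to each treatment, the 5 farthest from a TSS, those at the 100 kb border, the 3 lowest unadjusted limma p-values per direction, the 10 genes with most members and the 10 widest intervals. Regions without exact copies, antigen receptor loci, sequenced deserts and regions nearest to H3K27ac were added after the values had been seen. Some regions and genes that these rules name are not reported here.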

Additional observations from a re-analysis of the deposited data

How the results depend on the processing

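Limiting all CTCF lists to the shortest turned the difference in distal regions with a peak to 76.3 regions and in their share to 0.210 points, and limiting the H3K27ac lists turned the distance to 0.273 kb. Replicates 2 and 3 alone turned the log2 fold ratio between treatments to −0.0114 and the width to 2.00 bp. Of these, the treatment comparisons with a test had not passed it (exact p from 0.2 to 1 over all alternatives). At 3 libraries against 3 the exact test could not have gone below p = 0.1. Over the omissions of single libraries, the number of regions ranged from −3112 to 1129, the share from −2.11 to 1.28 points, the motif share from −0.036 to 6.13 points, the fold ratio from −0.0322 to 0.0423 and the width from −49.3 to 38.7 bp. Distal against proximal, the log2 fold ratio ranged from −0.21 to −0.18 and the width from −72.6 to −66.8 bp, both with exact p = 0.0625, the smallest that 5 libraries allow. With a motif window of 100 bp the motif difference was −2.26 points (exact p = 0.03125).

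VPA-only and CTRL-only regions numbered 54 and 81 at a border of 50 kb, 15 and 17 at 200 kb, and 10 and 4 with equal list lengths. Leaving out single libraries, which makes either pattern easier to meet, gave 46 to 180 and 54 to 572. There were 572 CTRL-only regions without CTRL replicate 1, and 180 and 172 VPA-only regions without VPA replicate 1 or 2. For none of these settings was the share over all CTCF regions computed. The share in all 6 libraries was 28.0% at 50 kb, 22.8% at 200 kb and 20.9% with equal lengths. With every transcript's TSS there were 32 CTRL-only regions and 24.4% in all 6. Without regions that had exact copies the counts were 29 and 51. limma called 0 members at borders of 50 and 200 kb, with every transcript's TSS, with recovered pileups, without centring, with replicates 2 and 3 alone (288 members and 1319 of all regions at an unadjusted p under 0.05) and without each library (14 to 74 members). It was not run on equal-length or stricter lists or without regions that had exact copies.

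Samples that shared a replicate number deviated from their group means with correlations of 0.34, 0.03 and 0.24. Those with different numbers had correlations from −0.35 to 0.25. The main tests did not take the number as a pairing, so any effect shared by a number stayed in their spread. With the replicate block, the number of distal regions differed by −935 (exact p = 0.5), and limma called 0 members, with 110 of 4639 members and 514 of all 27794 regions at an unadjusted p under 0.05. The lowest called pileup was 11 or 12 fragments in every CTCF library.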
